A study of Mus musculus with 6 samples.

Results

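The Hoxb cluster genes Hoxb1 to Hoxb9 were followed through day 6 embryoid bodies in which HOXB4, the product of one of them, had been placed under doxycycline control. All probe sets named for 1 of these 9 genes alone were taken, which gave 10 of the 45037 probe sets on the array. They cover 8 of the 9 genes, with 2 probe sets each for Hoxb3 and Hoxb4. Hoxb8 shares its probe set with Hoxb7 and has none of its own. The embryoid bodies, clumps of differentiating cells, came from the mouse embryonic stem cell line Hoxb4i, whose integrated tet-on cassette produces HOXB4 when doxycycline is present. The induced group received doxycycline at 2 µg/ml from day 4 for 48 hours, and the other group was not induced. Cultures of both groups started from 3500 cells/ml and ended on day 6, with 1 array of each group in experiments A, B and C, so that 6 arrays were available. Every array comes from the same engineered line and both groups carry the cassette. No doxycycline-treated embryoid bodies without the cassette are among these samples, so HOXB4 and doxycycline itself cannot be told apart.

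Hox genes encode homeodomain transcription factors that give cells their position along the head to tail axis of the embryo. Within a cluster they lie in the order in which they are switched on, with the 3' genes, beginning at Hoxb1, active early and towards the head, and the 5' genes, ending at Hoxb9, active later and further back. In the embryo the 3' members pattern the hindbrain, the middle and 5' members are used in spinal cord and mesoderm, and several, Hoxb4 among them, are also active in blood progenitors.

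The values are MAS5 signals, 1 intensity per probe set and array, and the tests compare them only within a probe set. Sums over gene lists are descriptions and are carried by the brightest probe sets. The files hold no detection calls, so the dim end of each array was described by 80 probe sets of olfactory and vomeronasal receptor genes, which are mostly silent outside sensory tissue. The 95th percentile of their signals lay between 60.9 and 113.6 on the 6 arrays, and the median signal of all probe sets between 92.0 and 108.6. The uninduced array of A stood apart in 1 measure of RNA quality. There the 3' control probe set of Actb was 2.88 times as bright as the 5' one, against 1.26 to 1.48 on the other 5 arrays. The same ratio for Gapdh differed less, at 1.08 against 0.83 to 0.90. Endothelial, blood, cardiac, neural and visceral endoderm markers were each present in at least 1 experiment. The cardiac genes Myl7, Tnnt2 and Myl4 lay under the receptor level on both arrays of C. The amounts of these markers differed between experiments, as given below beside the results they move with.

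Of the 10 Hoxb probe sets, 1 exceeded the receptor level on all 6 arrays, that of Hoxb2. Hoxb1, the brighter Hoxb3 probe set, both Hoxb4 probe sets and Hoxb6 did so on 5 arrays, the dimmer Hoxb3 probe set on 4, Hoxb5 on 2 (both of experiment B), Hoxb9 on 1 and Hoxb7 on 0. The probe sets of Hoxb7 and Hoxb9 had mean signals of 29.2 and 51.7 and were too dim to be tested, since a mean of at least 60.5, the 40th percentile, was required. Hoxb5, with a mean of 65.6, passed this filter only because of its values in experiment B. The other 8 probe sets, of 6 genes, were tested.

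**Figure D1:**
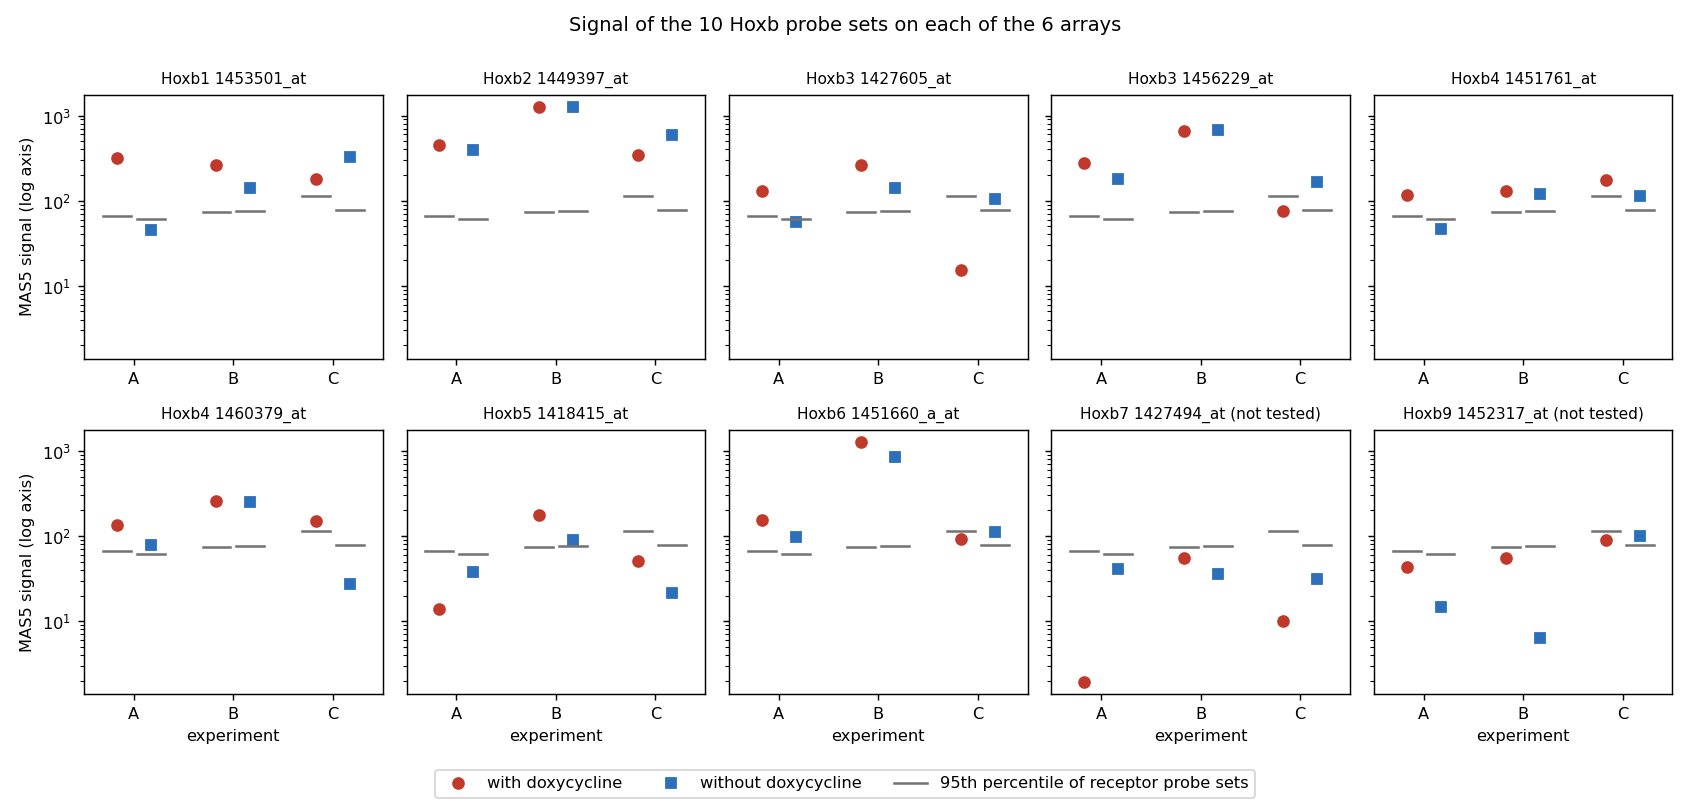
MAS5 signal (log axis) of each of the 10 Hoxb probe sets in experiments A, B and C, with doxycycline (circles, left) and without (squares, right); grey bars mark the 95th percentile of the receptor probe sets on the same array. Hoxb2, Hoxb3 and Hoxb6 stand highest in experiment B in both groups, Hoxb6 at 1276.6 and 847, while Hoxb7 stays below the grey bars on all 6 arrays.

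The first comparison asked what doxycycline did to Hoxb4 and to its neighbours in the cluster. Hoxb4, the gene whose product the cassette makes and a regulator known to expand blood stem cells, was measured by a pair of probe sets that the platform annotation ties to 1 and the same source sequence. On 1451761_at its signal was 116.4, 129.5 and 175.5 with doxycycline in A, B and C, against 46.5, 119.8 and 113.5 without. On 1460379_at it was 136.3, 261.4 and 150.7 with doxycycline in A, B and C, against 78.2, 253.0 and 27.6 without. Each induced array was thus above its own uninduced partner, yet on both probe sets the induced and uninduced groups overlapped. The ratio of induced to uninduced signal was small in B on both, at 1.08 and 1.03. It was 2.5 in A and 1.55 in C on the first, but 1.74 in A and 5.46 in C on the second. The larger ratio on each rests on an uninduced signal under the receptor level, 46.5 against 60.9 in A and 27.6 against 78.6 in C, so its size is not well measured. The log2 signals of these 2 probe sets correlated at 0.36 over the 6 arrays, a description only, as the arrays come in pairs. The labels do not say whether either probe set reads the transcript of the cassette. In bulk samples such as these, fewer cells of a type and less RNA per cell cannot be told apart.

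The pair of Hoxb4 probe sets were the only ones of the 8 tested that were higher with doxycycline in 3 of 3 experiments, and none was lower in all 3. Among all tested probe sets 12.8% were higher and 13.2% lower in all 3. The fitted log2 differences of Hoxb4 were 0.57 and 0.86, with 95% intervals of -0.37 to 1.5 and -0.60 to 2.33. Without uninduced A, the array whose Actb signal was most skewed to the 3' end, they were 0.22 and 0.79. Without uninduced C they were 0.73 and 0.26. With limma 0 of the 8 Hoxb probe sets passed an adjusted p of 0.05, and 0 of 8 had an unadjusted p under 0.05; over all 27022 probe sets 0% passed the adjusted threshold and 0.511% had an unadjusted p under 0.05. Taking the experiment as a replicate block gave unadjusted p-values of 0.113 and 0.0546 for Hoxb4 by limma (adjusted p = 0.93 for both) and again 0 calls, while 3.94% of all probe sets had an unadjusted p under 0.05.

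At the 3' end of the cluster Hoxb1, which sets the identity of a hindbrain segment, showed a wide difference within 1 experiment. Its signal was 319.4, 263.9 and 178.4 with doxycycline in A, B and C, against 45.5, 139.7 and 322.6 without. The induced array was thus higher in A and B and lower in C, with ratios of 7.02, 1.89 and 0.553. The low value of 45.5, under the receptor level of 60.9, comes from uninduced A, whose Actb signal was most skewed to the 3' end. The fitted log2 difference of 0.81 had an interval of -0.55 to 2.18. It was 0.19 without that array and 0.02 without both arrays of A, but 1.4 without the uninduced array of C and 1.61 without both arrays of C.

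Among the tested probe sets, those of Hoxb1 and Hoxb4 had the largest fitted differences with doxycycline, and their promoters are shown for the motifs that Hox proteins and their partners are known to use. The windows run from 250 bases before to 50 after the start of the gene (RefSeq, GRCm38.p6); 3 of the 9 genes, Hoxb1, Hoxb4 and Hoxb8, have one in the RefSeq table used. Capitals mark TGATNNAT, bound by Hox with Pbx proteins, TGACAG, bound by Meis and Pknox proteins, AGGTCA, a core motif of nuclear receptors such as those for retinoic acid, CCAAT, the E box CACGTG and TATAAA, each searched on both strands. The windows are Hoxb1 at chr11:96365508-96365807 and Hoxb4 at chr11:96318017-96318316, both on the plus strand.
Hoxb1: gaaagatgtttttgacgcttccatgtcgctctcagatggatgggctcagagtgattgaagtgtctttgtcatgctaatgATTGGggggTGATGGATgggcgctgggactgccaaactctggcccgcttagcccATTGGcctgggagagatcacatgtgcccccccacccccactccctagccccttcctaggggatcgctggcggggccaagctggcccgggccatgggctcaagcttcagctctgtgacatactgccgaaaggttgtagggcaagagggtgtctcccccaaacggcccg
Hoxb4: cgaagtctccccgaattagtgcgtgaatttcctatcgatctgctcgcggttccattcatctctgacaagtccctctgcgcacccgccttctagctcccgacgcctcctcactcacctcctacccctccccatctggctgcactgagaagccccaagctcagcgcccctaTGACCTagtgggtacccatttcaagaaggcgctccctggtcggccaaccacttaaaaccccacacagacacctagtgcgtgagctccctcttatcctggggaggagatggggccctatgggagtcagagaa
The Hoxb1 window holds 1 TGATNNAT, written TGATGGAT and lying from base 89 to base 96, and 2 CCAAT boxes on the minus strand. The TGATGGAT belongs to a known autoregulatory element of mouse Hoxb1. TGATNNAT occurs in 8.85% and CCAAT in 37.4% of the 32851 promoter windows of the table. The Hoxb8 window, not printed here, also holds 1 TGATNNAT on the minus strand, with 1 CCAAT box and 2 TATAAA. The Hoxb4 window holds 1 AGGTCA on the minus strand, from base 170 to base 175, a motif found in 16.3% of windows, and none of the other 5. These matches are descriptions of the letters and not sites of binding.

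The remaining tested genes did not move one way. Hoxb2, a hindbrain gene, had a signal of 456.8, 1272.7 and 342.0 with doxycycline in A, B and C, against 396.4, 1254.0 and 591.8 without, so that its induced array was lower in C and close to its partner in A and B. Hoxb3, another hindbrain gene, was highest in B as well on its brighter probe set, 1456229_at, at 274.3, 661.9 and 76.4 with doxycycline in A, B and C, against 179.8, 669.1 and 166.1 without. Its dimmer probe set, 1427605_at, was at 128.7, 263.9 and 15.3 with doxycycline, against 56.6, 142.3 and 103.7 without. In experiment C all 3 of these probe sets were lower with doxycycline, while both Hoxb4 probe sets were higher. The ratio was 0.578 for Hoxb2. The induced Hoxb3 signals of 76.4 and 15.3 lay under the receptor level of 113.6 on that array, so no ratio is given for Hoxb3, and the difference of Hoxb4 on 1460379_at rests on the dim uninduced 27.6. In the RefSeq table the Hoxb3 locus encloses Hoxb4, so the 2 genes have overlapping transcription units. The fitted log2 differences were -0.18 for Hoxb2 and -0.14 and -0.02 for Hoxb3, none past the threshold, and each changed sign when certain arrays were left out; without the induced array of C they were 0.19, 0.61 and 0.84.

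In the middle of the cluster, Hoxb5, known as a marker of long-term blood stem cells in the mouse, had a signal of 14.0, 178.3 and 50.6 with doxycycline in A, B and C, against 37.8, 91.1 and 21.5 without. Only its B values, higher with doxycycline, lay above the receptor level, so the differences in A and C are between dim values. Hoxb6, a gene of lateral and posterior mesoderm, had a signal of 155.3, 1276.6 and 93.1 with doxycycline in A, B and C, against 97.3, 847.0 and 113.0 without. It was higher with doxycycline by ratios of 1.6 and 1.51 in A and B and lower, at 0.824, in C. The fitted log2 differences were 0.28 for Hoxb5 and 0.31 for Hoxb6. The interval for Hoxb6 was -2.15 to 2.77 without and -0.29 to 0.91 with the replicate block. The values of both genes turned negative without the induced array of B, at -0.40 and -0.76.

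At the 5' end, Hoxb7, active in the kidney ducts of the embryo, had a signal of 1.9, 54.6 and 10 with doxycycline in A, B and C, against 41.5, 35.6 and 31.5 without, below the receptor level on every array. Hoxb9, which patterns the thorax, had a signal of 42.9, 54.8 and 90.4 with doxycycline, against 14.6, 6.3 and 101.3 without. Only the uninduced array of C exceeded the receptor level for Hoxb9, and the groups overlapped. The probe set shared by Hoxb8 and Hoxb7, which belongs to no single gene, was at 67.0, 227.3 and 54.3 with doxycycline, against 8.1, 126.7 and 83.1 without. With no filter the adjusted p for doxycycline was 0.99994 for both Hoxb7 and Hoxb9 (limma).

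Over the 8 tested probe sets the median fitted log2 difference between embryoid bodies with and without doxycycline was 0.29, beside 0.01 over all tested probe sets. The cofactors of Hox proteins of the TALE class, which include the Meis, Pbx and Pknox genes, had a median of 0.03 over 8 tested genes, and 0 of them passed the threshold. The reference gene Actb had log2 differences of 0.01 and -0.16 on its 2 probe sets.

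**Figure D2:**
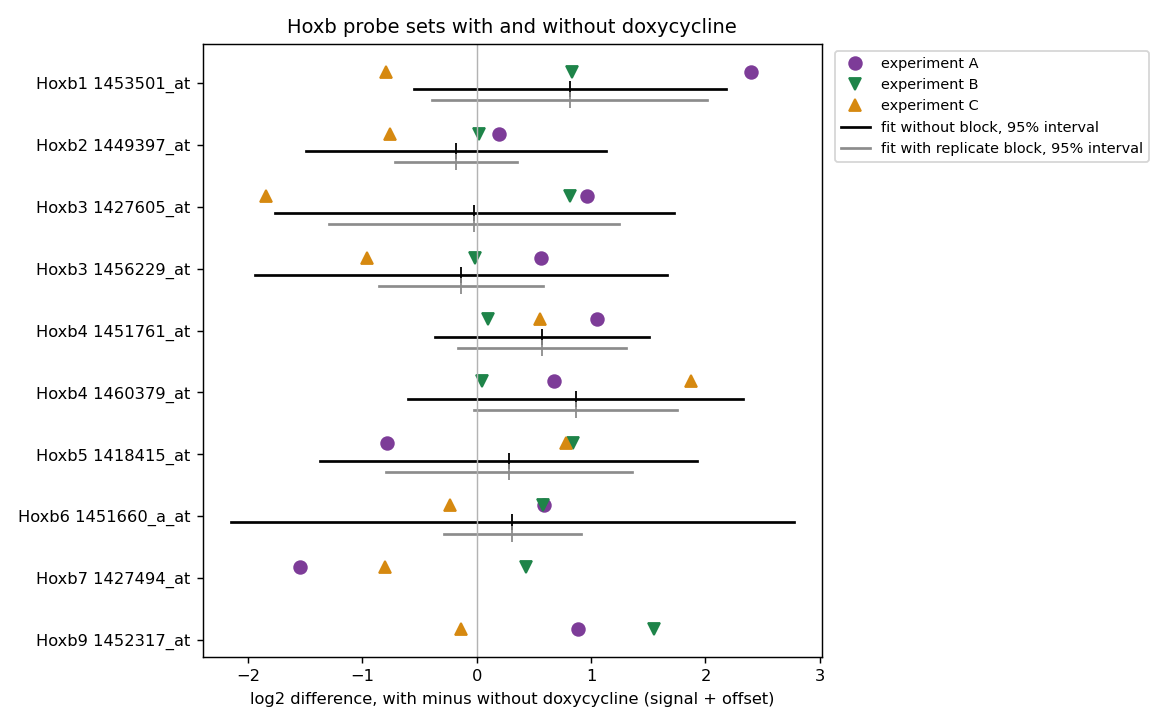
Log2 difference, with minus without doxycycline, for each Hoxb probe set, from Hoxb1 at the top to Hoxb9 at the bottom; symbols give experiments A, B and C, lines the fitted value with its 95% interval without (black) and with (grey) the replicate block. The symbols lie on one side of 0 only for the Hoxb4 probe sets, and every interval includes 0; Hoxb7 and Hoxb9 were not tested and have no line.

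The second comparison asked how the cluster's genes differed between experiments A, B and C, whichever group the array belonged to. Hoxb2, Hoxb3 and Hoxb6 differed between experiments, and in each of them experiment B was high. By the F test of a limma fit with the experiments and a doxycycline term, 3 of the 8 Hoxb probe sets passed the adjusted threshold, beside 11.6% of all 27022. Both arrays of B were above the other 4 arrays on 6 of the 8 Hoxb probe sets, beside 12.2% of all; the exceptions were Hoxb1 and the Hoxb4 probe set 1451761_at. One of the 6 is Hoxb5, which had to be high in B to be tested. Without it the count was 5 of 7, and with no filter it was 6 of all 10 Hoxb probe sets, beside 10.1% of all 45037. Both arrays of C were below the other 4 on 1 Hoxb probe set, the brighter one of Hoxb3 (15.3% of all), and above them on 0 (18.6% of all). Both arrays of B were below the other 4 on 0 (16.4% of all), and both of A were above on 0 (15.5% of all) and below on 0 (10.8% of all). Each experiment has 2 arrays, so these p-values read the differences between experiments against the spread within them.

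Hoxb6 differed most. Its mean signal was 1061.8 in B against 126.3 in A, a ratio of 8.41 and a fitted log2 difference of 2.90 (limma, interval 2.16 to 3.63, adjusted p = 0.0071). Its mean in C was 103.05 against 1061.8 in B, a log2 difference of -3.12 (interval -3.86 to -2.39, adjusted p = 0.00097). Between C and A the log2 difference was -0.23, with an interval of -0.96 to 0.51. Hoxb6 was thus bright only in experiment B, with 1 of its arrays in C under the receptor level. Its F test and its difference between C and B passed under all alternatives run, and that between B and A passed under all except the fit with no intensity trend (adjusted p = 0.051).

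Hoxb2 was higher in B than in A by a log2 difference of 1.53 (limma, interval 0.88 to 2.18, adjusted p = 0.0306), on mean signals of 1263.35 and 426.6. Its mean in C was 466.9 against 1263.35 in B, a log2 difference of -1.45 (interval -2.10 to -0.80, adjusted p = 0.0170). In C against A its log2 difference was 0.08, with an interval of -0.57 to 0.73. The F test for Hoxb2 no longer passed when induced B (adjusted p = 0.149) or uninduced B (0.0865) was left out, or with no intensity trend (0.0802). The same 3 settings ended its call for B against A (0.164, 0.183 and 0.105) and for C against B (0.193, 0.0842 and 0.0637), with C against B also lost when induced C was left out (0.223).

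Hoxb3 was also high in B on its brighter probe set, with a mean of 121.25 in C against 665.5 in B, a log2 difference of -2.37 (limma, interval -3.25 to -1.49, adjusted p = 0.00758). In B against A it was at 1.5 with an interval of 0.63 to 2.38, which missed the threshold (adjusted p = 0.0698) but passed it with a larger offset (0.0455) or without a doxycycline term (0.0464). That difference was 2.03 without induced A and 0.98 without uninduced A. The dimmer Hoxb3 probe set pointed the same way at -1.72 in C against B and 1.02 in B against A, neither past the threshold. Its difference in B against A was 1.76 without induced A and 0.27 without uninduced A. The F test of the brighter probe set was lost when induced B (adjusted p = 0.0654) or uninduced B (0.0534) was left out and with no intensity trend (0.0697). Its difference between C and B was lost when induced C was left out (0.0546).

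Hoxb4 did not show this difference clearly. Its probe set 1460379_at had mean signals of 107.25, 257.2 and 89.15 in A, B and C. Its log2 difference was -1.64 in C against B (interval -2.72 to -0.55, limma, adjusted p = 0.071), which missed the threshold. Its probe set 1451761_at had means of 81.45, 124.65 and 144.5 in A, B and C, with C against B at a log2 difference of 0.16 (interval -0.74 to 1.06). The probe sets therefore differ in whether B stood above C. Hoxb5 had means of 25.9, 134.7 and 36.05 in A, B and C, with log2 differences of 1.77 in B against A and -1.48 in C against B, neither past the threshold. In B against A the difference was 0.97 without induced A and 2.57 without uninduced A. Hoxb1 had means of 182.45, 201.8 and 250.5 in A, B and C, and an F test with an adjusted p of 0.596 (limma). Without induced A its log2 differences were 1.71 in B against A and 2.00 in C against A, the remaining array of A being the one with 45.5. Without uninduced A they were -0.67 and -0.37.

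Hoxb9, too dim to be tested, was highest in experiment C. Both of its arrays in C, at 90.4 and 101.3, were above the other 4, which lay between 6.3 and 54.8. The induced 90.4 lay under the receptor level of 113.6 on that array. Among all tested probe sets 18.6% had both arrays of C above the other 4. With no filter its log2 difference was 1.41 in C against B, with an adjusted p of 0.215 (limma). Hoxb7 stayed under the receptor level in all 3 experiments.

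**Figure D3:**
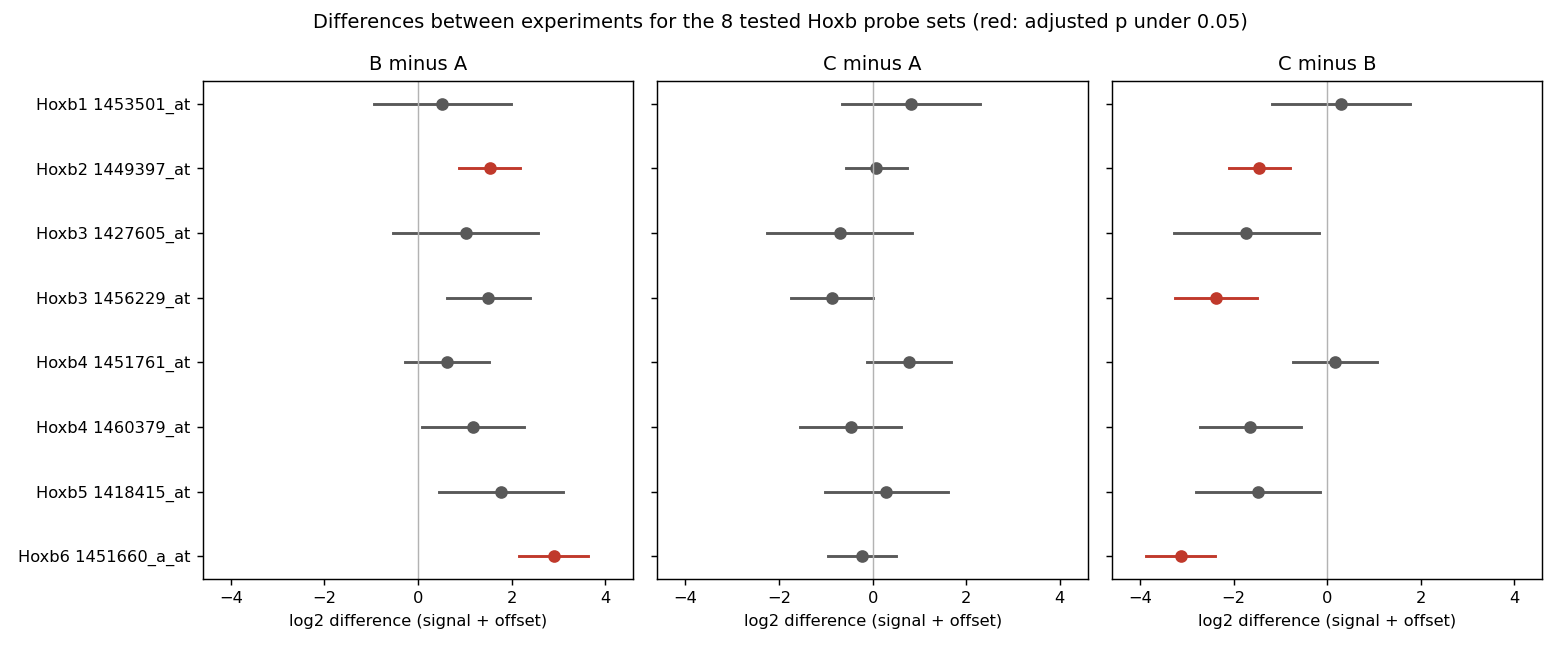
Fitted log2 differences with 95% intervals between experiments, B minus A, C minus A and C minus B, for the 8 tested Hoxb probe sets from Hoxb1 at the top to Hoxb6 at the bottom; red marks an adjusted p under 0.05. B minus A lies above 0 for all 8, largest for Hoxb6 at 2.90, C minus B lies below 0 for 6 of 8, and no C minus A difference is red.

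Over the 8 tested probe sets the median fitted log2 difference was 1.34 for B minus A, beside -0.08 over all tested probe sets. For C minus B it was -1.56, beside 0.07 over all, and for C minus A it was -0.07, beside -0.01. These medians include Hoxb5. Without it they were 1.17 for B minus A and -1.64 for C minus B, and over all 10 Hoxb probe sets with no filter 1.09 and -1.46, beside -0.02 and 0.09 over all 45037. B was higher than A past the threshold on 2 of the 8 (2.09% of all) and lower on 0 (1.91% of all). C was lower than B on 3 of the 8 (5.26% of all) and higher on 0 (4.33% of all). For C against A 0 of the 8 passed in either direction, beside 6.82% of all (2.52% higher, 4.29% lower). The 3 calls of C against B compare with 9.59% of all in both directions. B was called above both A and C on 2 of the 8, Hoxb2 and Hoxb6, beside 1.57% of all. Without the induced or the uninduced array of A the F test passed for 6 of the 8 Hoxb probe sets in both cases, but also for 13806 and 8755 of all probe sets. Without any 1 array of B or C it passed for 1 to 4 of the 8 and for 1502 to 1766 of all.

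Neighbours inside and beside the cluster were set against these genes. Hoxb5os, a long noncoding RNA whose locus overlaps Hoxb5 and Hoxb6 in the RefSeq table and which was added after its values were seen, was lowest in A and highest in B. Its signal was 178.3, 1979.5 and 813.7 with doxycycline in A, B and C, against 92.6, 1944.4 and 902.7 without. It was higher in B than in A by a log2 difference of 3.74 (interval 3.08 to 4.40, limma, adjusted p = 0.00263) and higher in C than in A by 2.56 (interval 1.90 to 3.22, adjusted p = 0.00503). It thus parted from Hoxb6 in experiment C, where Hoxb6 had a log2 difference of -0.23 from A. Among 10 tested genes that flank the cluster 1 passed the F test: Copz2, a coat protein gene of vesicle traffic, with means of 708.0 in B and 244.4 in A. Hoxb13, the most distant member of the cluster, had signals of 3.8 to 13.3 with doxycycline and 3.7 to 13.9 without, below the receptor level on all 6 arrays.

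The other Hox clusters were measured in the same embryoid bodies. By the F test 3 of 5 tested Hoxd genes, 1 of 3 Hoxc genes and 0 of 6 Hoxa genes passed, beside 3 of 6 Hoxb genes and 14.0% of the 12452 tested genes. The called ones were high in B as well: Hoxd9 with a mean of 1759.85 in B and 218.05 in A, Hoxd8 with 1124.2 and 149.7, Hoxd1 with 337.7 and 89.85, and Hoxc8 with 672.45 and 64.7. The median log2 difference, C minus B, was -2.08 for the Hoxd, -0.62 for the Hoxc and -1.07 for the Hoxa genes. For the Hoxb genes it was -1.56. Hoxa10, with means of 22.85 in A and 24.65 in C, passed the filter only because of experiment B. So did Hoxa11, with means of 77.5 in A and 38.5 in C. Like Hoxb5, both had to be high in B to be tested, and the medians include them. Whether the clusters differ from one another was not tested.

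Genes known to switch Hox genes on or keep them off were set beside these. Of 9 tested Cdx and posterior signal genes, which act upstream of Hox genes in the tail of the embryo, 4 were higher and 1 lower in C than in B. Wnt3a, a ligand of the tail bud, had a mean signal of 443.3 in C and 17.15 in B, a log2 difference of 3.58 in C against B (interval 2.67 to 4.49, limma, adjusted p = 0.00132). Fgf8, a growth factor of the same region, stood at 3.14 in C against B (adjusted p = 0.00166). Of 14 retinoic acid genes 3 were higher and 0 lower in C than in B. Among the 3 were the retinoic acid binding protein genes Crabp1 at 3.35 and Crabp2 at 3.62. Cyp26a1 of the same list ran the other way. Its log2 difference of -1.22 in C against B missed the threshold (limma, adjusted p = 0.086). In C against A it stood at -3.00 (adjusted p = 0.0077), where 3 of the 14 genes were higher and 2 lower. Of 7 hindbrain and spinal cord regulators 5 were higher and 0 lower in C than in B, with Pax3 at 4.96, Pax7 at 4.58 and Gbx2 at 4.49. In B the signals of Pax3, Pax7, Gbx2 and Wnt3a, at 4.1 to 47.8, were under the receptor level on both arrays. The sizes of these 4 differences are thus set against dim values. Gbx2, with means of 74.5 in A and 6.6 in B, passed the filter only because of its values in C. It had to be high there to be tested. Of 20 Polycomb and trithorax genes, which hold Hox clusters silent or active, 3 were higher in C than in B: Ezh2 at 0.74, Cbx2 at 0.93 and Ring1 at 1.10. Among all 12452 tested genes 720 were higher and 864 lower in C than in B.

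Markers of several cell types differed between the same experiments. Among all 12452 tested genes 720 were higher and 864 lower in C than in B. By probe set these shares were 4.33% and 5.26%. Endothelial markers summed to 2641.2 with and 1208.2 without doxycycline in A, 8561.4 with and 7830.1 without in B, and 981.7 with and 1371.8 without in C, and 8 of the 9 were lower in C than in B. Blood markers summed to 3929.9 with and 1114.8 without doxycycline in A. They summed to 28123.9 with and 38246.1 without in B, and 2266.0 with and 2260.2 without in C. Most of the sums in B came from 2 embryonic globin genes, Hbb-bh1 at 20436.5 and 27950.9 and Hba-x at 5037.4 and 7277.8. In C 3 of 10 tested blood markers were lower than in B, among them Hba-x and Hbb-bh1. Mesenchyme markers summed to 4073.1 with and 6530.2 without doxycycline in A, 32105.3 with and 35299.7 without in B, and 5406.1 with and 5338.4 without in C, where 5 of 7 tested were lower than in B. Neural markers ran the other way, at 4422.9 with and 6695.5 without doxycycline in A, 651.2 with and 984.0 without in B, and 11353.8 with and 11611.7 without in C, where 7 of 8 tested were higher than in B. Heart markers summed to 413.9 and 549.2 in C and 2375.9 and 3825.0 in B. Visceral endoderm markers summed to 905.5 and 783.1 in C, against 12135.6 and 12623.6 in B. Their sums on the arrays of A were 7637.0 with doxycycline, 6703.6 without. Ttr alone made up 10701.3 and 11110.3 of the B sums. Of the 8 visceral endoderm markers 2 were higher and 3 lower in B than in A. Foxa2 was among the lower ones, its mean being 1109.7 in A but 317.65 in B. In C 4 of the 8 were lower than in B. Pluripotent cell markers summed to 4094.1 and 4007.4 in C and 1325.5 and 1680.7 in B, with 3 of 8 higher in C than in B, and neural crest markers to 2421.1 and 1933.6 in C and 653.7 and 638.6 in B, with 2 of 4 tested higher. No marker was listed at 0; Ptprc of the blood list, Prrx1 of the mesenchyme list and Msgn1, Meox2, Pax1 and Uncx of the paraxial mesoderm list lay below the receptor level on all 6 arrays. The part of these markers in the Hoxb differences was not tested.

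**Figure D4:**
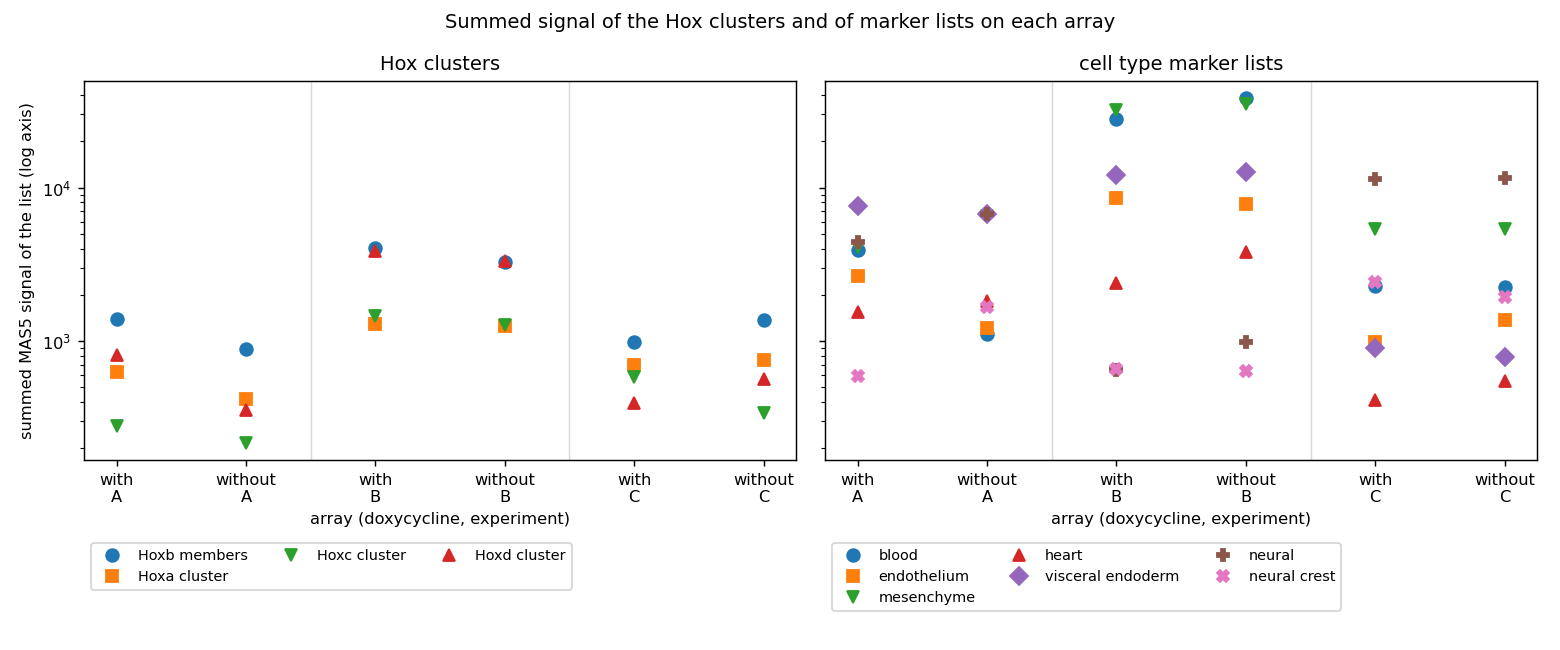
Summed MAS5 signal (log axis) of the Hox clusters (left) and of cell type marker lists (right) on each array, 1 probe set a gene, in experiments A, B and C with doxycycline left of without. The Hoxb genes sum to 4024.2 and 3295.8 in B, above the other 4 arrays at 891.1 to 1400.9, and endothelial, blood and mesenchyme markers are also highest there, while neural markers are lowest.

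The genes whose log2 signals over the 6 arrays were most like those of Hoxb6 were Cd59a (Pearson r = 0.998), Mmrn2 (0.991), Tmem204 (0.991), Emilin1 (0.991) and Tek (0.991), chosen among 12451 genes. Tmem204, at 1.5 to 32.2 outside B, and Mmrn2, at 37.0 to 83.0 there, passed the filter only because of experiment B. Like Hoxb5, both had to be high in B to be among these genes. Tek, the receptor of angiopoietins on endothelium, had a signal of 157.3, 1398.7 and 59.8 with doxycycline in A, B and C, against 85.5, 1366.0 and 82.3 without. Within the cluster, Hoxb2 correlated with Hoxb6 at 0.96 and ranked 166 among these genes, Hoxb3 at 0.92 (rank 363) and Hoxb5 at 0.84 (rank 842), while Hoxb1 stood at 0.18 (rank 4482). For Hoxb4, by its brighter probe set, the most alike were Zfp963 (0.993), Rab3gap2 (0.990), Htra1 (0.989), Nectin3 (0.987) and Zfand2b (0.985). The Hoxb gene most like this probe set was Hoxb6 at 0.74 (rank 777), while Hoxb1 stood at -0.02. On the dimmer Hoxb4 probe set, 1451761_at, the order was reversed, with Hoxb1 at 0.72 and Hoxb6 at 0.24. The 6 arrays are pairs from 3 experiments, so these correlations carry the differences between the experiments and are descriptions only.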

How the data were processed

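Expression was measured on Affymetrix Mouse Genome 430 2.0 arrays from 4.3 µg of total RNA, per the labels' protocols. The intensity that the authors deposited for each probe set and array is credited to MAS5 in the submitters' processing notes, with no version given in these sources. The deposited signals were linear, and their mean after trimming 2% from each end was 500.0 on each array. The number of arrays limits the precision.

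From these, log2(signal + 18.8) was computed, 18.8 being the 20th percentile of all values, which understates changes of dim probe sets. The 64 control probe sets were left out. A mean of at least the 40th percentile (60.5) was required for testing, met by 27022 probe sets. Gene names come from the platform annotation at GEO, updated through Entrez IDs with the RefSeq table of GRCm38.p6 (34754 of 34945 probe sets named for 1 gene); 932 named several and 9160 none. In lists a gene was read from its tested probe set with the highest mean.

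The 2 groups were set against each other by limma 3.58.1, run in R 4.3.3 (intensity trend, Benjamini-Hochberg over all tested probe sets, two-sided, threshold 0.05), and experiments in a fit with a doxycycline term. The experiment letters were taken as pairing the arrays, since the labels' descriptions give each array an experiment letter. Deviations from group means correlated at 0.45, 0.67 and 0.66 in A, B and C. The doxycycline fit with the replicate block, and B minus A of the fit between experiments, were tested on simulated data. The doxycycline fit without the block was not. The offset, filter, normalization, trend, block and each array were varied. Besides every Hoxb probe set, the rule for named genes took the 5 genes most like Hoxb4 and most like the member with the largest F, up to 3 genes per list with the smallest p of the F test, and Actb. The members and lists were chosen with earlier results of these data known.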

Additional observations from a re-analysis of the deposited data

How the results depend on the processing

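No doxycycline call appeared in any setting run, over all probe sets or the Hoxb ones: with an offset of 1 or one 4 times larger, no filter or one at the 60th percentile, quantile normalization, no intensity trend, the replicate block, or 1 array or 1 experiment left out, the count was 0, with 138 probe sets at an unadjusted p under 0.05 (1065 with the block) by limma. The block changed no call. The sign of the doxycycline difference turned for the dimmer Hoxb3 probe set with the larger offset (0.10). With arrays or experiments left out the difference ranged from -0.73 to 0.27 for Hoxb2, -0.69 to 0.89 for Hoxb3 on 1427605_at, -0.81 to 0.61 on 1456229_at, -0.40 to 0.89 for Hoxb5 and -0.76 to 1.25 for Hoxb6. For Hoxb1 and Hoxb4 it stayed above 0, at 0.02 to 1.61 for Hoxb1, 0.22 to 0.80 on 1451761_at and 0.26 to 1.54 on 1460379_at.

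Between experiments, the fit with no intensity trend gave 1186 calls by the F test (main setting 3138), 76 for B minus A (1082), 174 for C minus A (1842) and 1686 for C minus B (2591), with 1 Hoxb probe set by the F test (3) and 0 for B minus A (2). With no filter there were 702 and 1089 calls for B minus A and C minus A. With 1 array left out the F test gave 1502 to 13806 calls and 1 to 6 Hoxb ones, B minus A 139 to 9262 and 1 to 5, C minus A 264 to 9709 and 0 to 1, and C minus B 1018 to 8126 and 2 to 6. The lone array is then assumed to vary like the others. Signs turned among these for Hoxb1 (B minus A -0.67 to 1.71, C minus A -0.39 to 2.02, C minus B -0.91 to 1.5), and in C minus A for Hoxb2 (-0.35 to 0.51), Hoxb3 on 1427605_at (-2.07 to 0.66), Hoxb4 on 1460379_at (-1.22 to 0.29), Hoxb5 (-0.50 to 1.10) and Hoxb6 (-0.64 to 0.18), and in C minus B for Hoxb4 on 1451761_at (-0.19 to 0.51). No difference whose sign turned passed the threshold in that setting. The cause was not tested. Counting all tested probe sets in place of 1 a gene gave F test shares of 50.0% for Hoxc (33.3% by gene), 5.56% for flanking genes (10%), 5.26% for TALE cofactors (0%), 7.69% for Polycomb and trithorax genes (15.0%) and 28.6% for paraxial mesoderm markers (16.7%).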
